A study of Rattus norvegicus with 12 samples.

Results

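Pyruvate dehydrogenase and its kinases were followed in the livers of rats fed little or much fat, through 5 genes: the kinases Pdk4, Pdk2 and Pdk1, and the complex subunits Dlat and Pdha1. All probe sets to which the platform annotation gave just 1 of these symbols were taken, which were 9 of the 8799 on the array, and all 9 were among the 8740 tested. Dlat had 3 probe sets, Pdk2 and Pdha1 had 2 each, and Pdk4 and Pdk1 had 1 each. From 5% to 70% fat, averaged over both oils, all 3 probe sets of Dlat and that of Pdk1 fell, with log2 differences of -0.71 ± 0.06 (SE, D10655_at), -0.61 ± 0.08 (SE, D10655_g_at) and -0.60 ± 0.12 (SE, D00092_s_at) for Dlat and -0.95 ± 0.16 (SE) for Pdk1. Pdk4, Pdk2 and Pdha1 did not pass the test between fat levels. With corn oil Pdk4 and 1 of the probe sets of Pdha1 were lower than with olive oil, on arrays that also differed between the oils in a measure of RNA integrity.

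The pyruvate dehydrogenase complex sits in mitochondria and turns pyruvate, the end product of glycolysis, into acetyl-CoA, a step that commits carbohydrate carbon to oxidation or, in a well-fed liver, to the making of fatty acids. Pdha1 and Pdhb form the pyruvate dehydrogenase component, Dlat forms the acetyltransferase core on which the other parts are mounted, Pdhx anchors the dihydrolipoamide dehydrogenase Dld to that core, and Mpc1 is part of the carrier that brings pyruvate into the mitochondrion. The kinases Pdk1 to Pdk4 phosphorylate Pdha1 and switch the complex off, the phosphatases Pdp1 and Pdp2 switch it on again, and Pdk4 in particular is known to be induced by fasting and by fatty acids through the nuclear receptor PPARA.

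The study measured liver RNA on 12 single-colour Affymetrix rat arrays, 3 for each of 4 diets. All rats were male Sprague-Dawley animals of 150 g at the start, with no genetic alteration named, which received liquid food through a stomach cannula for 21 days at a surplus of 17% of calories. The 4 diets were isocaloric and held 5% corn oil, 70% corn oil, 5% olive oil or 70% olive oil as fat, so a diet with more fat also held less carbohydrate, and no group was fed normally. Each array held a pool of liver RNA, and pools are numbered 1 to 3 within a diet; the sources used here do not say how many rats made up a pool. The p-values therefore reflect only how far pools of a diet differ, which may be in part technical. Echium oil, also named in the feeding protocol, was not analysed here.

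Every value is a log2 difference from the median of that probe set across the 12 arrays. The table holds no absolute levels, so one gene's level cannot be set against that of another, and the liver and other cell type markers could not be checked as present or absent. In whole-liver RNA, fewer cells of a type and less RNA per cell cannot be told apart. Effects are differences of diet means with standard errors (SE) from limma, a linear model fitted to all 8740 probe sets, with p-values adjusted by the Benjamini-Hochberg method and a threshold of 0.05. The number of arrays limits the precision.

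The stretches just before the annotated starts of Dlat, Pdk1 and Pdk4 are shown because Dlat and Pdk1 moved together with dietary fat while Pdk4, the kinase best known to respond to fatty acids, did not pass the test with fat. They are the parts of the RefSeq promoter windows on the GRCr8 build that lie outside the annotated gene, 5′ to 3′ on the gene's strand. Capitals mark a GC box, whose letters are GGGCGG on either strand, or a CCAAT box on either strand.
Dlat, chr8:59900948-59901068, minus strand: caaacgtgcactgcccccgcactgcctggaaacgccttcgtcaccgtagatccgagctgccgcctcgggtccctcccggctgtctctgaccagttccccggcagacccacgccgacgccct
Pdk1, chr3:77113264-77113463, plus strand: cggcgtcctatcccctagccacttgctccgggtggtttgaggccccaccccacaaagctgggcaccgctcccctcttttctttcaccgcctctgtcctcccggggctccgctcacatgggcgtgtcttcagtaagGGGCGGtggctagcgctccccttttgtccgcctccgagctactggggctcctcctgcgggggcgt
Pdk4, chr4:34568330-34568579, minus strand: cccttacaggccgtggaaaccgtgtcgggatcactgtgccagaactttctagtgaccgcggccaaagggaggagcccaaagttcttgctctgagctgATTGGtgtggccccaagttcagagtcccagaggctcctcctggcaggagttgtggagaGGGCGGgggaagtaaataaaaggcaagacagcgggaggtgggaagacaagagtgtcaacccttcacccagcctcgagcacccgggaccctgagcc

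The 121 bases shown for Dlat held none of these motifs, the 200 bases of Pdk1 held 1 GC box, and the 250 bases of Pdk4 held 1 GC box and 1 CCAAT box. Over the full windows of 300 bases, which also take in bases inside the annotated gene, both strands were searched in all 5 genes. A GC box was in the windows of Pdk4, Pdk1, Dlat and Pdha1, and in 33.1% of 33469 rat promoters. A CCAAT box was in those of Pdk4 and Pdk2, and in 37.5% of promoters. The E-box CACGTG, a core motif bound by carbohydrate and circadian regulators, was in that of Pdk2 alone among the members, and in 6.42% of promoters. The nuclear receptor motif AGGTCA was in that of Dlat alone among the members, and in 16.2% of promoters. The longer motif of estrogen-related receptors, TCAAGGTCA, which contains AGGTCA, and the FOXO motif GTAAACA were in none of the 5 windows, and in 0.433% and 3.78% of promoters. A match describes these letters only, and the arrays measured no binding.

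Control probe sets at both ends of the actin and GAPDH transcripts give a 3'/5' index for each array, the 3' value minus the 5' value, which is higher where RNA or its labelled copy is less complete. For the diets of 5% and 70% corn oil the mean index was 1.28 ± 0.28 and 0.71 ± 0.48, and for those of 5% and 70% olive oil -0.36 ± 0.06 and -0.35 ± 0.10 (each SD, n = 3). The oils differed by 1.35 (exact permutation test on 6 against 6 arrays, two-sided p = 0.00216, the smallest it can give). By pool it was 1.502, 1.36 and 0.97 with 5% corn oil, 0.95, 0.16 and 1.03 with 70% corn oil, -0.31, -0.35 and -0.43 with 5% olive oil, and -0.23, -0.41 and -0.39 with 70% olive oil. Every corn oil array was above every olive oil array, and pool 2 of 70% corn oil came nearest. From 5% to 70% fat the index changed by -0.56 under corn oil (two-sided exact permutation p = 0.2) and 0.018 under olive oil (two-sided exact permutation p = 0.8), where 0.1 is the smallest p that 3 against 3 arrays allow. For the 9 probe sets, results between oils are therefore given with and without the index as a term of the model, and for other genes without it. No 2 arrays were duplicates, since the closest pair differed by 0.195 (root mean square, log2).

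Dlat, the acetyltransferase core of the complex, was lower at 70% fat with both oils. Its probe set D10655_at read 0.43, 0.23 and 0.40 in pools 1 to 3 of 5% corn oil and -0.38, -0.55 and -0.56 in those of 70% corn oil. With olive oil it read 0.22, 0.43 and 0.30 at 5% fat and -0.22, -0.31 and -0.26 at 70% fat. All 6 arrays of low fat lay above all 6 of high fat, whichever the oil. The fall was 0.85 ± 0.09 with corn oil, or 1.80-fold (adjusted p = 0.000516), and the difference was -0.58 ± 0.09 with olive oil, or 1.49-fold (adjusted p = 0.016). By p-value Dlat D10655_at ranked 11 with corn oil and 18 with olive oil among the 8740 probe sets. The corn oil call stood without each array in turn and with the index as a term (-0.82 ± 0.12, adjusted p = 0.018). The olive oil value was -0.52 without pool 2 of 5% olive oil (adjusted p = 0.064), -0.58 without its pool 3 (adjusted p = 0.0716), and -0.60, -0.55 and -0.58 when pool 1, 2 or 3 of 70% olive oil was left out (adjusted p = 0.0657, 0.0939 and 0.055).

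The second probe set designed from the same Dlat sequence, D10655_g_at, moved with the first (Pearson r = 0.97 over the 12 arrays). It read 0.63, 0.14 and 0.34 with 5% corn oil against -0.25, -0.42 and -0.35 with 70% corn oil. With olive oil it read 0.28, 0.35 and 0.34 at 5% fat against -0.18, -0.23 and -0.14 at 70% fat. Again low and high fat did not overlap within either oil. D10655_g_at fell by 0.71 ± 0.11 with corn oil (adjusted p = 0.00643), and its difference with olive oil was -0.51 ± 0.11 (adjusted p = 0.0841). The corn oil call of D10655_g_at ended with the index as a term (-0.62 ± 0.14, adjusted p = 0.126) and in a fit of the 6 corn oil arrays alone (-0.71 ± 0.14, adjusted p = 0.0976), and without pool 1 of 5% corn oil its olive oil value passed (-0.51 ± 0.08, adjusted p = 0.0295).

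The remaining probe set of Dlat, D00092_s_at, comes from another sequence, and its suffix is the one Affymetrix gave to probe sets that can match more than 1 transcript. It read -0.27, 0.10 and 0.01 with 5% corn oil and -0.36, -0.15 and -0.81 with 70% corn oil, which overlapped. With olive oil it read 0.97, 0.92 and 0.54 at 5% fat and -0.14, -0.01 and 0.14 at 70% fat, which did not overlap. The differences with fat were -0.38 ± 0.17 with corn oil (adjusted p = 0.245) and -0.81 ± 0.17 with olive oil (adjusted p = 0.0703). Its olive oil value of -0.81 passed without pool 2 of 70% corn oil (adjusted p = 0.0318) or without pool 3 (adjusted p = 0.0245). The order of the diets also differed from that of the D10655 probe sets: D00092_s_at was highest with 5% olive oil, at 0.81 ± 0.24 (SD, n = 3), while D10655_at stood at 0.35 ± 0.11 and 0.32 ± 0.11 (each SD, n = 3) in the 5% diets of corn and olive oil, which overlapped. As the mean of its 3 probe sets, Dlat was at -0.65 ± 0.08 with corn oil (adjusted p = 0.00146) and -0.63 ± 0.08 with olive oil (adjusted p = 0.00389), adjusted over 4736 genes.

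Pdk1, a kinase that switches the complex off, was also lower at 70% fat. It read 0.15, 0.02 and 0.29 in pools 1 to 3 of 5% corn oil and -0.45, -0.39 and -1.44 in those of 70% corn oil. With olive oil it read 1.01, 0.67 and 0.71 at 5% fat and -0.45, -0.08 and -0.02 at 70% fat. The fat levels did not overlap within either oil, and pool 3 of 70% corn oil was the lowest of all arrays. Pdk1 differed by -0.91 ± 0.23 with corn oil (adjusted p = 0.0641) and by -0.98 ± 0.23 with olive oil (adjusted p = 0.131), so neither passed alone. The corn oil value passed without pool 1 of 70% corn oil (-1.07 ± 0.25, adjusted p = 0.045) and was -0.57 ± 0.14 without pool 3 (adjusted p = 0.0744), while without pool 3 the olive oil value passed (-0.98 ± 0.13, adjusted p = 0.00712). After a second quantile normalization both passed, at -0.80 with corn oil (adjusted p = 0.0473) and -1.01 with olive oil (adjusted p = 0.0116). The order of the means was 5% olive oil at 0.80 ± 0.18, 5% corn oil at 0.15 ± 0.13, 70% olive oil at -0.19 ± 0.23 and 70% corn oil at -0.76 ± 0.59 (each SD, n = 3), with overlap between the pools of both 70% diets alone among neighbours.

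Pdk4 lay higher at 70% fat without passing the test. It read -0.99, -0.62 and -0.43 with 5% corn oil against -0.23, -0.33 and -0.10 with 70% corn oil, which did not overlap. With olive oil it read 0.12, 0.10 and 1.04 at 5% fat against 0.79, 0.94 and 0.69 at 70% fat, and pool 3 of 5% olive oil was above all the others. The differences were 0.46 ± 0.22 with corn oil (95% interval -0.02 to 0.94, adjusted p = 0.284) and 0.38 ± 0.22 with olive oil (95% interval -0.10 to 0.86, adjusted p = 0.741). Averaged over both oils, Pdk4 was at 0.42 ± 0.16 (95% interval 0.08 to 0.76, adjusted p = 0.23). Without pool 3 of 5% olive oil that mean effect was 0.58 ± 0.10 and passed (adjusted p = 0.014). With an array left out in turn the corn oil value ran from 0.31 to 0.58 and the olive oil value from 0.22, without pool 2 of 5% olive oil, to 0.69, without its pool 3, and none of these passed. After a second quantile normalization Pdk4 was at 0.18 ± 0.18 with corn oil (adjusted p = 0.737).

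Pdk2, the kinase isoform found widely across tissues, did not pass the test between fat levels with either probe set. U10357_at read -0.54, -0.51 and -0.16 in the pools of 5% corn oil, -0.33, 0.33 and -0.70 with 70% corn oil, 0.63, 0.31 and -0.08 with 5% olive oil, and 0.15, 0.08 and 0.40 with 70% olive oil. It differed by 0.17 ± 0.24 with corn oil (95% interval -0.34 to 0.69, adjusted p = 0.758) and by -0.07 ± 0.24 with olive oil (95% interval -0.59 to 0.44, adjusted p = 0.972). U10357_g_at read 0.18, 0.12 and 0.30 with 5% corn oil, 0.09, 0.14 and -0.17 with 70% corn oil, 0.18, -0.09 and -0.28 with 5% olive oil, and -0.47, -0.31 and -0.13 with 70% olive oil. It differed by -0.18 ± 0.13 with corn oil (adjusted p = 0.502) and by -0.24 ± 0.13 with olive oil (adjusted p = 0.736). For both probe sets the pools of the 2 fat levels overlapped within each oil. The probe sets share a source sequence. Their Pearson r was -0.11 over the 12 arrays, but 0.48 within the 6 corn oil arrays and 0.83 within the 6 olive oil arrays.

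Pdha1, the subunit that carries the sites the kinases phosphorylate, did not pass either. Its probe set Z12158cds_at differed by 0.36 ± 0.16 with corn oil (95% interval 0.02 to 0.70, adjusted p = 0.241) and by -0.07 ± 0.16 with olive oil (95% interval -0.41 to 0.27, adjusted p = 0.958). With the index as a term the corn oil value of Z12158cds_at was -0.03. The other probe set, rc_AA799598_at, read 0.09, 0.02 and 0.06 with 5% corn oil, 0.09, -0.02 and 0.10 with 70% corn oil, 0.08, -0.31 and -0.35 with 5% olive oil, and -0.19, -0.37 and -0.28 with 70% olive oil. It differed by 0.0042 ± 0.11 with corn oil (95% interval -0.23 to 0.24, adjusted p = 0.99) and by -0.09 ± 0.11 with olive oil (95% interval -0.33 to 0.15, adjusted p = 0.92).

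With corn oil, then, 2 of the 9 probe sets passed between fat levels and both were lower, where 2.11% of all probe sets passed and 0.801% were lower. The pools did not overlap in 4 of the 9, where this held for 18.9% of all probe sets. With olive oil 1 of the 9 was lower, where 0.435% passed and 0.309% were lower, and the pools did not overlap in 4 of the 9, against 19.8% of all. The median difference of the 9 was -0.18 with corn oil and -0.24 with olive oil, against -0.0075 and 0.0277 over all probe sets. Both contrasts draw on 1 shared estimate of the spread.

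Averaged over both oils, which uses all 12 arrays, 4 of the 9 probe sets fell and none rose, against 1.03% lower and 2.28% called in all. The members were chosen with earlier results of these data known. The 4 are 3 probe sets of Dlat and 1 of Pdk1, and with 1 value per gene 2 of the 5 genes passed. The adjusted p of those 4, whose sizes are given at the start, was 6.67e-05 for Dlat D10655_at, 0.00143 for D10655_g_at and 0.0223 for D00092_s_at, and Pdk1 fell 1.93-fold (95% interval -1.31 to -0.59, adjusted p = 0.00971). These calls are not independent of those within each oil, since the arrays are the same. They stood without each array in turn for Pdk1 (adjusted p up to 0.036) and for both D10655 probe sets, and with the index as a term for all 4. The call of D00092_s_at was lost without pool 2 of 5% corn oil (-0.56, adjusted p = 0.069), pools 1 or 2 of 5% olive oil (-0.56 and -0.57, adjusted p = 0.0648 and 0.0588) or pools 1 or 2 of 70% olive oil (-0.56 and -0.59, adjusted p = 0.0745 and 0.0549). Pdk2 was at 0.05 ± 0.17 (U10357_at, adjusted p = 0.922) and -0.21 ± 0.09 (U10357_g_at, adjusted p = 0.331). Pdha1 was at 0.14 ± 0.11 (Z12158cds_at, adjusted p = 0.61) and -0.04 ± 0.08 (rc_AA799598_at, adjusted p = 0.84).

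The hepatocyte marker list moved with fat under corn oil as well. Of its 21 probe sets for 9 genes 3 rose at 70% corn oil and 0 passed with olive oil. The mean over these probe sets ran from -0.38 to -0.22 in the pools of 5% corn oil, -0.10 to 0.04 with 70% corn oil, -0.07 to 0.13 with 5% olive oil and 0.06 to 0.11 with 70% olive oil. Of the 12 Kupffer cell and macrophage probe sets 1 fell with corn oil. Markers of endothelial, stellate, bile duct, lymphoid, muscle and fat cells had 0 of their 34 probe sets past limma's test within either oil. Averaged over oils, 3 hepatocyte probe sets rose, 0 of the Kupffer cell and macrophage probe sets passed and 1 of the other 34 fell. The part of these shifts in the results for Dlat and Pdk1 was not tested.

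Whether fat acted differently with the 2 oils was tested as the difference between both fat effects. None of the 9 probe sets passed, and 0 of 8740 did in limma (at an unadjusted p under 0.05, 0 of the 9 and 11.8% of all). The corn oil effect minus the olive oil effect was -0.27 for Dlat D10655_at (95% interval -0.55 to 0.01), 0.07 for Pdk1 (95% interval -0.65 to 0.78) and 0.08 for Pdk4 (95% interval -0.60 to 0.75). For Dlat D00092_s_at it had the opposite sign to D10655_at, at 0.42 (95% interval -0.10 to 0.94). Pdha1 Z12158cds_at was at 0.43 (95% interval -0.05 to 0.91). These intervals leave room for sizeable differences in kinases and subunits. The effects of fat are therefore not shown to be alike in both oils.

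Between the oils, Pdk4 and the Z12158cds_at probe set of Pdha1 were lower with corn oil. The difference of Pdk4, corn minus olive oil, was -1.11 ± 0.22 at 5% fat, or 2.15-fold (adjusted p = 0.00418), and -1.03 ± 0.22 at 70% fat, or 2.04-fold (adjusted p = 0.0154). The pools of Pdk4 did not overlap at either fat level, and all 6 corn oil arrays lay below all 6 olive oil arrays, as the values by pool above show. With the index as a term Pdk4 was at -0.83 ± 0.60 at 5% fat (adjusted p = 0.865) and -0.85 ± 0.42 at 70% fat (adjusted p = 0.658). In that fit 0 of all 8740 probe sets passed between oils by limma (at an unadjusted p under 0.05, 5.97% of all and 0 of the 9 at 5% fat, and 7.99% and 1 at 70% fat), since the index itself separates the oils, and index and oil cannot be told apart. The call at 70% fat was lost without pool 1 of 70% corn oil (-1.02, adjusted p = 0.0521) and without pools 1 or 2 of 70% olive oil (-1.04 and -0.96, adjusted p = 0.0522 and 0.0601).

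Pdha1 gave opposite readings from its probe sets. Z12158cds_at read -1.001, -0.94 and -0.67 with 5% corn oil and 0.38, 0.20 and 0.33 with 5% olive oil. At 70% fat it read -0.63, -0.13 and -0.78 with corn oil and 0.13, 0.14 and 0.42 with olive oil. Every corn oil array lay below every olive oil array. Z12158cds_at was lower with corn oil, at -1.17 ± 0.16 at 5% fat, or 2.25-fold (adjusted p = 0.000485), and -0.74 ± 0.16 at 70% fat (adjusted p = 0.0147). The other probe set, rc_AA799598_at, was at 0.25 ± 0.11 at 5% fat (95% interval 0.01 to 0.48, adjusted p = 0.139) and 0.34 ± 0.11 at 70% fat (95% interval 0.11 to 0.58, adjusted p = 0.0739), that is, on the other side of 0. Over the 12 arrays the 2 probe sets ran against each other (Pearson r = -0.73). Within the 6 corn oil arrays r was -0.58, and within the 6 olive oil arrays it was 0.36. The call of Z12158cds_at at 70% fat was lost without pools 1 or 3 of 70% corn oil (-0.68 and -0.61, adjusted p = 0.0607 and 0.0537) or pool 3 of 70% olive oil (-0.65, adjusted p = 0.0665), and rc_AA799598_at passed at both fat levels without pool 1 of 5% olive oil (0.38 and 0.34, adjusted p = 0.0176 and 0.0306).

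Within the 6 corn oil arrays Z12158cds_at followed the 3'/5' index. The 9 probe sets and 2 oils made 18 relations, over which p-values were adjusted. Pearson r for Z12158cds_at was -0.99 (exact permutation, raw p = 0.00139 and adjusted p = 0.025). Spearman rho was -1 (exact permutation, raw p = 0.00278 and adjusted p = 0.05), which is not under the threshold. Arrays of both fat levels were permuted together, so fat and index are not told apart in these tests. Dropping the 2 arrays with the index farthest from its median left r at -0.96. In the 6 olive oil arrays, where the index spans a much narrower range, r was -0.36 (exact permutation, raw p = 0.499 and adjusted p = 0.894) with a rho of -0.26 (exact permutation, raw p = 0.658 and adjusted p = 0.973). Without the 2 farthest arrays that olive oil r was 0.35, on the other side of 0. No other of the 18 relations passed after adjustment. With the index as a term the oil difference of Z12158cds_at was -0.05 ± 0.25 at 5% fat (adjusted p = 0.98) and -0.02 ± 0.18 at 70% fat (adjusted p = 0.987). For rc_AA799598_at within the corn oil arrays r was 0.57 (exact permutation, raw p = 0.239 and adjusted p = 0.614) with a rho of 0.49 (exact permutation, raw p = 0.356 and adjusted p = 0.711). Without the 2 farthest arrays that r was -0.80, so its sign rests on those arrays. With the index as a term rc_AA799598_at was at -0.02 ± 0.29 at 5% fat (adjusted p = 0.993) and 0.17 ± 0.20 at 70% fat (adjusted p = 0.868).

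Pdk2 also gave opposite signs, and neither probe set passed between oils. U10357_at was at -0.69 ± 0.24 at 5% fat (adjusted p = 0.0623) and -0.44 ± 0.24 at 70% fat (adjusted p = 0.293), while U10357_g_at was at 0.26 ± 0.13 (adjusted p = 0.19) and 0.32 ± 0.13 (adjusted p = 0.163). U10357_at passed at 5% fat without pool 3 of 5% olive oil (-0.88, adjusted p = 0.0354) or without pool 2 or 3 of 70% corn oil (-0.69, adjusted p = 0.0168 and 0.0313), and at 70% fat without pool 2 of 70% corn oil (-0.73, adjusted p = 0.0328). Pdk1 was at -0.64 ± 0.23 at 5% fat (adjusted p = 0.0739) and -0.57 ± 0.23 at 70% fat (adjusted p = 0.153), and passed at 5% fat without pool 3 of 70% corn oil (-0.64 ± 0.13, adjusted p = 0.00471). With the index as a term U10357_at turned to 0.75 and 0.49, and Pdk1 to 0.47 and 0.14. U10357_g_at was then at 0.66 and 0.57, so that both Pdk2 probe sets lay on the same side of 0 in that fit. None of these values passed (adjusted p from 0.565 for U10357_g_at at 70% fat upward).

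For Dlat, only D00092_s_at passed between oils among its 3 probe sets, and it did so at 5% fat. D00092_s_at was lower with corn oil at 5% fat (-0.86 ± 0.17, adjusted p = 0.00397), a call that ended with the index as a term (-0.08 ± 0.40, adjusted p = 0.983). At 70% fat it was at -0.44 ± 0.17 (adjusted p = 0.135), and passed without pool 2 of 70% corn oil (-0.58, adjusted p = 0.0426). D10655_at was at 0.04 ± 0.09 at 5% fat (adjusted p = 0.817) and -0.23 ± 0.09 at 70% fat (adjusted p = 0.135). D10655_g_at was at 0.05 ± 0.11 at 5% fat (adjusted p = 0.818) and -0.16 ± 0.11 at 70% fat (adjusted p = 0.432). With the index as a term, at 5% and 70% fat, D10655_at was at -0.05 and -0.29 and D10655_g_at at -0.23 and -0.34, and D00092_s_at was at 0.07 at 70% fat, none past the test.

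In all, 3 of the 9 probe sets were lower with corn oil at 5% fat, against 9.36% lower and 19.5% called over all, and 2 were lower at 70% fat, against 4.55% lower and 8.51% called. The pools of the oils did not overlap in 5 of the 9 at 5% fat and 6 of the 9 at 70% fat, where this held for 41.3% and 27.2% of all. The median oil difference of the 9 was -0.64 at 5% fat and -0.44 at 70% fat, against 0.0559 and 0.0146 over all probe sets. Some cell type markers also passed between the oils, where 19.5% of all probe sets passed at 5% fat and 8.51% at 70% fat. Of the 21 hepatocyte probe sets 6 were lower with corn oil at 5% fat and 1 at 70% fat, with none higher. Of the 12 Kupffer cell and macrophage probe sets 1 was higher and 4 lower at 5% fat, and 1 was lower at 70% fat. Of the 34 probe sets for the other cell types 7 were higher and 2 lower at 5% fat, and 2 were higher at 70% fat. The part of these markers in the oil results was not tested.

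Of the rest of the complex, its regulators and its carrier, Pdhb fell with fat in the average over oils. The list held 11 further genes, of which Pdhb, Pdhx, Pdp1, Pdp2 and Mpc1 had 8 probe sets between them. None passed in limma with corn oil or with olive oil alone, and 1 fell in the average over oils: Pdhb, the partner of Pdha1, at -0.36 ± 0.08 (rc_AA892828_at, adjusted p = 0.0418). Its other probe set, rc_AA892828_g_at, was at -0.18 ± 0.22 (adjusted p = 0.75). Mpc1, the pyruvate carrier, was at -0.80 ± 0.20 with corn oil (adjusted p = 0.0667), and Pdhx, which binds Dld to the core, at -0.47 ± 0.13 with olive oil (adjusted p = 0.199). The median of the 8 was -0.04 with corn oil and -0.13 with olive oil. Between oils, Pdhb rc_AA892828_at was lower with corn oil, at -0.43 ± 0.11 at 5% fat (adjusted p = 0.0193) and -0.45 ± 0.11 at 70% fat (adjusted p = 0.0319), rc_AA892828_g_at was lower at 5% fat (-1.12 ± 0.32, adjusted p = 0.0271), and Mpc1 was higher by 0.66 ± 0.20 at 5% fat (adjusted p = 0.0406), on the arrays whose index differed by 1.35.

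Among enzymes that make or use pyruvate, Pklr and Me1 fell with both oils. Of 24 probe sets of 10 genes, 4 fell and 2 rose with corn oil, and 2 fell and 0 rose with olive oil, with medians of -0.15 and -0.05. Pklr, the liver pyruvate kinase that makes pyruvate, fell by 2.11 ± 0.25 with corn oil (adjusted p = 0.00124) and fell by 1.30 ± 0.25 with olive oil (adjusted p = 0.0472). Me1, which makes pyruvate and NADPH from malate in the cytosol, also fell, at -1.501 ± 0.29 with corn oil (rc_AI171506_g_at, adjusted p = 0.023) and -1.57 ± 0.29 with olive oil (adjusted p = 0.0405). Agxt, an aminotransferase that forms pyruvate from alanine, rose by 0.76 ± 0.14 with corn oil (X06357cds_s_at, adjusted p = 0.0217). With corn oil the 5 probe sets of Me1 ran from -1.88 to -0.24 and the 6 of Agxt from 0.18 to 0.76. Those of Me1 ran from -1.61 to -0.14 with olive oil. There only rc_AI171506_g_at passed, and the others had an adjusted p from 0.0535 upward.

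Downstream, in the citrate cycle and citrate export, most probe sets did not pass. Of 18 probe sets of 12 genes, 3 rose and 2 fell with corn oil, and 0 rose and 1 fell with olive oil, with medians of 0.14 and 0.03. Acly, which splits exported citrate into the acetyl-CoA used for fatty acids, fell by 1.87 ± 0.18 with corn oil (J05210_g_at, adjusted p = 0.000192) and fell by 1.19 ± 0.18 with olive oil (adjusted p = 0.0118). Aco1, the cytosolic aconitase, rose by 0.73 ± 0.09 with corn oil (adjusted p = 0.00214), the cytosolic isocitrate dehydrogenase Idh1 by 0.46 ± 0.08 (rc_AA892314_at, adjusted p = 0.0148) and the succinate-CoA ligase subunit Suclg1 by 0.45 ± 0.10 (J03621_at, adjusted p = 0.041). Other probe sets of 2 of these genes differed in sign with corn oil: Acly L27075_g_at was at 0.14 ± 0.13 (adjusted p = 0.6), while J05210_at fell by 1.65 ± 0.22 (adjusted p = 0.0024), and Idh1 rc_AA944025_at was at -0.49 ± 0.26 (adjusted p = 0.332). Suclg1 U75393_s_at was at 0.18 ± 0.08 (adjusted p = 0.245). The related complexes for other 2-oxoacids, with 6 probe sets of 4 genes, had 0 past limma's test with either oil. The smallest p-value among them was that of Dlst, the core subunit of the 2-oxoglutarate dehydrogenase complex and so the counterpart of Dlat, at 0.52 ± 0.20 with corn oil (D90401_at, adjusted p = 0.192).

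Genes known to respond to PPARA rose with fat while Pdk4, which belongs to the same group by its known regulation, did not pass. Of 24 probe sets of 14 such genes, 11 rose with corn oil, 6 with olive oil and 15 in the average over oils, with none lower, and the medians were 0.83, 0.75 and 0.85. Eci1, an enzyme of the oxidation of unsaturated fatty acids, rose by 2.50 ± 0.17 with corn oil (rc_AI170568_s_at, adjusted p = 1.40e-05) and by 1.61 ± 0.17 with olive oil (adjusted p = 0.000949). Cyp4a1, a fatty acid hydroxylase, rose by 1.94 ± 0.16 with corn oil (X07259cds_s_at, adjusted p = 0.000103) and by 1.06 ± 0.16 with olive oil (adjusted p = 0.0145). Against these the value of Pdk4 was 0.46 with corn oil and 0.38 with olive oil. Without each array in turn it ran from 0.31 to 0.58 and from 0.22 to 0.69. Eci1 and Cyp4a1 were named for their small p-values. The 24 probe sets ran from -0.17 to 3.28 with corn oil and -0.16 to 3.70 with olive oil. Pdk4 lay within both ranges and below both medians. With corn oil Eci1 D00729_g_at rose by 1.91, while D00729_at (0.35, adjusted p = 0.142) and rc_AA799541_at (0.38, adjusted p = 0.154) did not pass. Regulators known for the Pdk genes, with 23 probe sets of 13 genes, had 0 past limma's test between fat levels. Among them Nr3c1, the glucocorticoid receptor, was at -0.37 ± 0.09 with corn oil (rc_AA893618_s_at, adjusted p = 0.0622) and Ppara at 0.29 ± 0.10 with olive oil (adjusted p = 0.406).

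The probe sets whose values over the 12 arrays were most like those of the members fell into several kinds. Dlat D10655_at was most like Acly (r = 0.98), the fatty acid synthase Fasn (r = 0.96) and the desaturase Scd (r = 0.96), and D10655_g_at was most like Acly (r = 0.97), the lipid droplet protein Pnpla3 (r = 0.97) and Fasn (r = 0.95). Pdk1 was most like Me1 (r = 0.97 and 0.93 for 2 probe sets) and the fructose transporter Slc2a5 (r = 0.96). Dlat D00092_s_at was most like Prpsap1 (r = 0.96), Slc2a5 (r = 0.94) and Pfkfb1, an enzyme that sets the level of the glycolytic activator fructose 2,6-bisphosphate (r = 0.92). Pdk1 and Dlat D00092_s_at had an r of 0.91 with each other, and Pdk1 and D10655_at one of 0.79.

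Pdk4 was most like Anxa5 (r = 0.95), Sec11a (r = 0.94) and Ide (r = 0.93). Z12158cds_at of Pdha1 was most like Akr1c14, Gdi2 and Gm2a (r = 0.99 each), while rc_AA799598_at was most like Sem1 (r = 0.92), Coro1a (r = 0.92) and Npepps (r = 0.91). U10357_at of Pdk2 was most like Qdpr, Gstm1 and the citrate carrier Slc25a1 (r = 0.95 each), and U10357_g_at most like Polr2f (r = 0.96), Spa17 (r = 0.92) and Ndufb10 (r = 0.92). The 3 genes most like a member were thus different for every probe set of Pdha1 and Pdk2. All these r values are descriptions over arrays that share the diets and the index difference between oils. As deviations from the diet means, r of the members with these most like genes covered a wide range. It ran from 0.30 (Dlat D10655_at with Scd) to 0.96 (Pdk2 U10357_at with Gstm1).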

How the data were processed

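Liver RNA pools from 4 diets were measured on 12 arrays, and samples were grouped by the oil and share in their labels. The authors deposited log2 values; GCOS and RMA were used per the submitters' processing notes, without versions, and the base was taken as 2. In the deposited values all probe sets (100%) had a median of 0 over the arrays (within 1e-06), so values are centred, signal over background cannot be judged, and a planned filter on low values could not be applied. Of 8799 probe sets, 59 controls were left out. The platform annotation gave 1 symbol to 7006 of those tested; 6985 symbols were updated through the gene identifier to GRCr8.

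With limma 3.58.1 in R 4.3.3, each diet had 1 mean, all 12 arrays shared the spread (8 residual degrees of freedom), and p-values from eBayes, two-sided, were Benjamini-Hochberg adjusted over 8740 probe sets in each of 6 contrasts. The script was tested on simulated data. Every member is named in every contrast; of a list, up to 4 genes past the threshold or 2 with the smallest p; and for likeness the 3 highest Pearson r of other genes. The members and lists were chosen with earlier results of these data known. Pool numbers do not pair the samples: same-numbered pools' deviations correlated between -0.19 and 0.11.

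Alternatives were a second quantile normalization, each array centred, trend with robust moderation, array weights, fits of 2 groups, 1 value per gene, the pool number as a block, the 3'/5' index as a covariate, a minimum change of 1.5-fold, and each array left out in turn. The relations to the index and their permutation tests were added after the data were seen.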

Additional observations from a re-analysis of the deposited data

How the results depend on the processing

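The fall of Dlat D10655_at and D10655_g_at and of Pdk1 averaged over both oils kept its direction and its call under every alternative run for single probe sets. Of 468 values of probe sets and contrasts in 9 settings besides leaving out an array, 404 kept direction and side of the threshold, 12 lost the call, 19 gained it and 33 changed sign. In the setting with 1 value per gene, the gene's value was set against each of its probe sets. A change there is not a change in a probe set. None of the 33 had passed in the main fit. With 1 value per gene, Pdha1 did pass in limma between oils at 5% fat (-0.46, adjusted p = 0.00858). The causes of these changes were not tested.

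Of the 9 probe sets, the count past the test between fat levels with corn oil, 2, was 1 in a fit of both groups alone and 1 with the index as a covariate. With olive oil, 1, it was 4 after a second quantile normalization, 4 with array weights, 4 in a fit of both groups alone, 2 with the index, 0 with a 1.5-fold minimum, and 0 to 3 without each array in turn. Averaged over oils, 4, it was 3 to 5 without each array. Between oils at 5% fat, 3, it was 5 with array weights, 5 in a fit of both groups alone, 0 with the index and 3 to 5 without each array. At 70% fat, 2, it was 1 with trend and robust moderation, 1 in a fit of both groups alone, 0 with the index and 0 to 4 without each array. With 1 value per gene the count is out of the 5 genes and not the 9 probe sets. Between fat levels it was 1 with corn oil and 1 with olive oil, Dlat each time, and 2 averaged over oils, Dlat and Pdk1. Between oils it was 2 at 5% fat, Pdk4 and Pdha1, and 1 at 70% fat, Pdk4.

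With 1 value per gene, where probe sets of a gene are averaged, Pdk2 was -0.0046 with corn oil and -0.080 averaged over oils, on the other side of 0 from U10357_at. Pdha1 was 0.050 averaged over oils, on the other side of 0 from rc_AA799598_at. In the difference between fat effects Dlat was -0.019, on the other side of 0 from D00092_s_at. Between oils at 5% fat the gene values were -0.26 for Dlat, -0.21 for Pdk2 and -0.46 for Pdha1, of which that of Pdha1 passed in limma (adjusted p = 0.00858). They lay on the other side of 0 from both D10655 probe sets, U10357_g_at and rc_AA799598_at. At 70% fat Pdk2 was -0.063 and Pdha1 -0.20, neither past the test. With the index, Pdk2 U10357_at was -0.32 and Pdha1 Z12158cds_at -0.026 with corn oil, and averaged over oils -0.19 and -0.043, with Pdha1 rc_AA799598_at at 0.0007. The difference between fat effects was then -0.020 for Pdk4, -0.26 for U10357_at, -0.084 for U10357_g_at and -0.32 for Pdk1. Between oils at 5% fat it gave U10357_at 0.75, Pdk1 0.47, D10655_at -0.049, D10655_g_at -0.23 and rc_AA799598_at -0.019, and at 70% fat U10357_at 0.49, Pdk1 0.14 and D00092_s_at 0.069. The difference between fat effects of Pdk4 was -0.29 after the second quantile normalization and -0.18 with array weights. Between oils at 5% fat these 2 settings gave -0.084 and -0.046 for D10655_at and -0.10 and -0.043 for D10655_g_at.

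Without each array in turn, these values spanned 0. Pdha1 rc_AA799598_at ran from -0.018 to 0.041 with corn oil, -0.17 to 0.044 with olive oil, -0.082 to 0.024 averaged over oils and -0.040 to 0.17 for the difference between fat effects. Pdk2 U10357_at ran from -0.11 to 0.41, -0.26 to 0.10, -0.092 to 0.17 and -0.036 to 0.48 in the same 4 contrasts. The difference between fat effects ran from -0.069 to 0.16 for U10357_g_at, -0.23 to 0.24 for Pdk4 and -0.12 to 0.41 for Pdk1. Between oils at 5% fat D10655_at ran from -0.011 to 0.10 and D10655_g_at from -0.085 to 0.16.

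The count past the test over all 8740 probe sets is given with its range over the other settings that count probe sets. It was 184 with corn oil (40 to 221), 38 with olive oil (22 to 138) and 199 averaged over oils (109 to 249). With 1 value per gene it was 103 of 4736 genes averaged over oils. For the difference between fat effects it was 0 (0 to 2). Between oils it was 1704 at 5% fat (0 to 2632) and 744 at 70% fat (0 to 1065). Without each array in turn it ran with corn oil from 59, without pool 1 of 5% corn oil, to 348, without its pool 3, and with olive oil from 10, without pool 1 of 70% olive oil, to 69, without pool 2 of 70% corn oil. It ran from 116, without pool 2 of 5% corn oil, to 233 averaged over oils, and was 10 without pool 3 of 5% corn oil for the difference between fat effects. Between oils it ran from 1115, without pool 2 of 5% olive oil, to 2065 at 5% fat, and from 311, without pool 3 of 70% olive oil, to 1162, without pool 2 of 70% corn oil, at 70% fat. The shares over all probe sets in the text move with these counts. The replicate block, with the pool number as a term, left the call of all 9 probe sets as it was in every contrast, and Dlat D10655_at fell by 0.85 ± 0.10 (adjusted p = 0.00262) with corn oil in that fit; pools share only a number. The planned filter on low values was not run, since centred values hold no levels. Signal over background cannot be judged from these values, and 3 arrays per diet limit the precision.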

Other observations

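Known regulators of the Pdk genes and PPARA targets were counted between the oils, on the same arrays whose 3'/5' index differed by 1.35. Over all probe sets 19.5% passed at 5% fat and 8.51% at 70% fat, with 9.36% and 4.55% lower with corn oil, and 0 of 8740 passed in limma with the index as a term (5.97% and 7.99% at an unadjusted p under 0.05). Of 23 probe sets of regulators known for the Pdk genes, 2 were higher and 5 lower with corn oil at 5% fat, and 1 was higher and 3 lower at 70% fat. Hif1a, the oxygen-regulated factor known to induce Pdk1, was lower with corn oil, at -0.90 ± 0.09 at 5% fat (limma adjusted p = 0.000196) and -0.70 ± 0.09 at 70% fat (adjusted p = 0.00253). Nr3c1, the glucocorticoid receptor, was higher by 0.76 ± 0.09 (rc_AA893618_s_at, adjusted p = 0.000335) and by 0.55 ± 0.09 (adjusted p = 0.00637). Its other probe sets did not pass at either fat level. M14053_at was at 0.25 and 0.24 (adjusted p = 0.266 and 0.383), and rc_AI137538_at at 0.23 and 0.07 (adjusted p = 0.0986 and 0.739). Of 24 probe sets of known PPARA targets, 0 were higher and 6 lower with corn oil at 5% fat, and 0 were higher and 3 lower at 70% fat. Among them was Cyp4a1 X07259cds_s_at, at -1.85 ± 0.16 (adjusted p = 6.55e-05) and -0.96 ± 0.16 (adjusted p = 0.00637). Cyp4a1 rc_AA924267_s_at passed at 5% fat (-1.47, adjusted p = 0.00142) but not at 70% fat (-0.71, adjusted p = 0.0929). M57718mRNA_s_at passed at neither (-0.60 and -0.14, adjusted p = 0.174 and 0.83).

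Dlst, the counterpart of Dlat in the 2-oxoglutarate dehydrogenase complex, had calls of opposite direction between the oils from its probe sets, at different fat levels. D90401_at was lower with corn oil at 5% fat (-0.86 ± 0.20, adjusted p = 0.0109), and D90401_g_at was higher at 70% fat by 0.47 ± 0.12 (adjusted p = 0.0373).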
